A study of Mus musculus with 26 samples.

Results

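Megakaryocyte and platelet genes were followed across 26 Affymetrix Mouse Exon 1.0 ST arrays. The 9 genes were Pf4, Ppbp, Itga2b, Itgb3, Gp5, Gp6, Gp9, Treml1 and Vwf, taken by symbol from the 21716 genes that the platform annotation names singly, and they were covered by 166 of the 631748 probe sets. A gene value is the median of those probe sets of a gene that make up the brighter 50% (by mean over 26 arrays), on the log2 scale of the deposited RMA values. Of the 9 genes, 8 had at least 4 probe sets and belong to the 18329 genes that were tested together. Gp5 had 2 probe sets and was tested with the genes that had 2 or more.

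The study profiled mouse samples whose titles run from ES1 to ES26 and whose labels name embryonic stem cells and embryoid bodies, aggregates in which stem cells begin to form tissues. The strain in the labels is 129S2/SvPas for 14 arrays (ES1 to ES14) and C57BL/6 for 12 arrays (ES15 to ES26), and it is the only difference between samples that the labels give, so no treatment, time or culture is attached to a title here. All samples are labelled as embryoid body cells of mouse, and no label says whether cultures or animals were separate. The p-values therefore reflect how far these samples scatter, and that scatter may be technical. The arrays are described in 3 runs of titles, ES13 to ES20 (8 arrays), ES1 to ES12 (12 arrays) and ES21 to ES26 (6 arrays). These runs were set with results of these data known, so values by run are a description with no test, and the order of titles is not known to be an order in time.

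Megakaryocytes are the large blood cells that shed platelets. They arise from progenitors shared with red cells under transcription factors that include GATA1 and its partner FOG1, and in the mouse embryo a first wave of them appears in the yolk sac beside primitive red cells. Platelets carry receptors that hold them to a damaged vessel wall, an integrin that binds fibrinogen, and granules whose proteins are released on activation.

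Several arrays stood apart from their strain label. The score of 18 granulocyte and monocyte markers (the mean of the gene values of the 17 measured) was 5.71 in ES13 and 5.49 in ES14, and 10.78 to 11.88 in ES1 to ES12, which carry the same label. In the arrays labelled C57BL/6 this score lay between 5.49 and 7.34. The score of 14 naive pluripotency markers was 8.42 in ES13 and 7.69 in ES14, 5.55 to 6.03 in ES1 to ES12, and 7.19 to 10.93 in ES21 to ES26. ES1 to ES12 thus had a low pluripotency score and a high myeloid score for samples labelled as embryoid body cells. The pluripotency list was not uniform. Of its 14 genes, 12 had their highest array in ES21 to ES26, but 1 (Klf2) had it in ES1 to ES12. Klf2 was 9.46 to 10.75 in ES1 to ES12 and 9.82 to 10.57 in ES21 to ES26, and Fgf4 was 6.98 to 8.46 and 7.79 to 9.47. Results by strain label are given with and without ES13 and ES14. Because the strain label follows the order of titles, any batch that the labels do not record cannot be told apart from it.

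The granule chemokines Pf4 and Ppbp were among the most variable of the members. Pf4, a heparin-binding chemokine stored in platelet granules, had gene values of 5.39, 5.46, 7.16, 10.05, 11.80, 11.72, 11.57 and 11.09 in ES13 to ES20 in title order. In ES1 to ES12 the lowest, median and highest Pf4 values were 7.18, 8.88 and 9.54, and in ES21 to ES26 they were 4.66, 5.08 and 5.52. The 5 arrays ES16 to ES20 lay above all 18 arrays outside ES13 to ES20, while ES13 and ES14 lay within the range of ES21 to ES26. Ppbp, the precursor of another platelet chemokine, had 4.90, 4.75, 5.47, 8.64, 10.67, 10.78, 10.79 and 10.33 in ES13 to ES20. Its lowest, median and highest values were 7.05, 8.99 and 10.74 in ES1 to ES12, and 5.03, 6.04 and 6.65 in ES21 to ES26. Ppbp thus reached nearly the same value in ES1 to ES12 as in ES13 to ES20, with 0.05 log2 units between the highest arrays of these runs, against 2.26 for Pf4. In these bulk samples, more cells of a type and more RNA per cell cannot be told apart. The start region of Pf4 is shown because this gene had the widest span of the 9, 7.14 log2 units over the 26 arrays. It lies at chr5:90772185-90772484 on the + strand of GRCm38.p6, from RefSeq, and capitals mark matches to the GATA and ETS motifs spelled out further on.
Pf4: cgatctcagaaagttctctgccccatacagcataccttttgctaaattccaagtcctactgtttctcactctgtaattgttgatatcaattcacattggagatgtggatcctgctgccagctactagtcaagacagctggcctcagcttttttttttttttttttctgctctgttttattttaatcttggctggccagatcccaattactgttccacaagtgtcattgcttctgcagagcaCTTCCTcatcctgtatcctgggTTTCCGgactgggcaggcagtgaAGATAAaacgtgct

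The fibrinogen receptor subunits Itga2b and Itgb3 were the members for which ES15 already lay above every array outside ES13 to ES20. Itga2b encodes the integrin alpha IIb chain (CD41), which also marks early blood progenitors in the mouse embryo, and Itgb3 encodes its partner, the beta 3 chain (CD61), which pairs with the alpha V chain in other cells. Itga2b values were 7.25, 8.51, 9.45, 10.35, 11.45, 11.29, 10.80 and 10.37 in ES13 to ES20, with a lowest, median and highest of 6.55, 8.04 and 9.13 in ES1 to ES12 and of 6.23, 6.52 and 6.83 in ES21 to ES26. Itgb3 values were 6.79, 8.04, 10.13, 11.23, 11.91, 11.61, 11.24 and 10.85 in ES13 to ES20, with a lowest, median and highest of 7.34, 8.77 and 9.90 in ES1 to ES12 and of 6.24, 6.86 and 7.17 in ES21 to ES26. For each of the pair, 6 arrays (ES15 to ES20) lay above all 18 arrays outside ES13 to ES20. The highest array was ES17 in both, 2.32 log2 units above the highest of the other 18 arrays for Itga2b and 2.01 for Itgb3. The Itga2b start region, shown because this gene was the first in title order to leave the range of ES21 to ES26 by 1 log2 unit, lies at chr11:102469834-102470133 on the - strand of GRCm38.p6.
Itga2b: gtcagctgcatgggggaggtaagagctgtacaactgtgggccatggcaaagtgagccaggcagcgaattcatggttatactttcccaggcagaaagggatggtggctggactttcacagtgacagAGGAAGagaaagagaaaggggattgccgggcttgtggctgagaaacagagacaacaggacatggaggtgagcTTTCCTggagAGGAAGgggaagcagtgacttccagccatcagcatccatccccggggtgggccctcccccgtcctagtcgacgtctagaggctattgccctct

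Gp5, Gp9 and Gp6, the platelet glycoproteins, were highest in ES16 to ES20. Gp5 and Gp9 encode glycoproteins V and IX, which belong with GP1BA and GP1BB to the receptor for von Willebrand factor, and Gp6 encodes the platelet collagen receptor, which signals through the Fc receptor gamma chain. Gp5 had 5.06, 5.75, 6.68, 8.61, 10.25, 10.11, 9.85 and 9.36 in ES13 to ES20. Its lowest, median and highest values were 4.34, 5.91 and 7.17 in ES1 to ES12, and 4.02, 5.23 and 6.11 in ES21 to ES26. The highest Gp5 value, in ES17, was 3.07 log2 units above the highest of the 18 arrays outside ES13 to ES20, the widest gap among the 9 members. Gp6 values were 5.31, 5.26, 5.75, 6.75, 8.87, 8.55, 8.05 and 7.78 in ES13 to ES20. In ES1 to ES12 the lowest, median and highest Gp6 values were 5.04, 5.32 and 5.88, and in ES21 to ES26 4.86, 5.24 and 5.46. Gp6 therefore lay in one narrow range in both outer runs, and its largest step between neighbouring titles, 2.13 log2 units, came between ES16 and ES17. Gp9 had 5.73, 6.48, 6.62, 7.60, 8.28, 8.53, 8.40 and 7.96 in ES13 to ES20. Its lowest, median and highest values were 5.90, 6.30 and 7.02 in ES1 to ES12, and 5.57, 5.90 and 6.07 in ES21 to ES26. For each of Gp5, Gp6 and Gp9, ES16 to ES20 lay above all 18 arrays of the outer runs. The start regions of Gp5 (chr16:30310732-30311031, - strand) and Gp6 (chr7:4397695-4397994, - strand; both GRCm38.p6) are shown because these 2 genes had the widest gap to the outer runs.
Gp5: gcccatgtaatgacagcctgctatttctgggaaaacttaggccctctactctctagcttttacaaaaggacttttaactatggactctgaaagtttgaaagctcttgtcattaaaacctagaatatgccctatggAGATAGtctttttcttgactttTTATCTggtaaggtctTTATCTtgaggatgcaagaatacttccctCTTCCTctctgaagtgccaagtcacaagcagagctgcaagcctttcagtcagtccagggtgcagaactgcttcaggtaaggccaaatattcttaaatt
Gp6: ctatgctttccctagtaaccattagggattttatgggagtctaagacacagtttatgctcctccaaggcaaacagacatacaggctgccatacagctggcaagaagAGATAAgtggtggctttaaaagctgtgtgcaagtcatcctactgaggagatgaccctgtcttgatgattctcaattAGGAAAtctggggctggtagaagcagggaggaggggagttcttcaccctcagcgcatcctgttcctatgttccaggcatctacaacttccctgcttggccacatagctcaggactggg

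Treml1 and Vwf spanned 3.01 and 3.54 log2 units over the 26 arrays. Treml1 encodes TLT-1, a receptor kept in platelet granules and brought to the surface on activation. Its values were 7.60, 7.39, 7.55, 8.37, 9.72, 9.73, 9.75 and 9.47 in ES13 to ES20, with a lowest, median and highest of 7.38, 7.75 and 8.06 in ES1 to ES12 and of 6.74, 7.41 and 7.51 in ES21 to ES26. ES16 to ES20 lay above both outer runs, ES17 to ES20 stood together at the top, and ES13 to ES15 lay among the outer runs. Vwf encodes von Willebrand factor, the large adhesive protein made by both megakaryocytes and endothelial cells. It had 6.47, 6.46, 7.09, 8.39, 9.82, 9.40, 9.21 and 8.55 in ES13 to ES20. Its lowest, median and highest values were 7.13, 8.08 and 9.59 in ES1 to ES12, and 6.29, 6.63 and 6.77 in ES21 to ES26. Only ES17 exceeded all 18 arrays outside ES13 to ES20 for Vwf, by 0.23 log2 units, and ES9 came next.

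All 9 members had their highest array in ES13 to ES20, and so did 8 of the 8 with at least 4 probe sets, against 23.3% of all tested genes. In 7 of the 9 (6 of those 8) the highest array of ES13 to ES20 was at least 1 log2 unit (2-fold) above the highest of the other 18 arrays, against 3.58% of all tested genes. The exceptions were Ppbp and Vwf. Over the 8 members the median of this gap was 1.85 log2 units, and over all tested genes it was -0.31. The highest array was ES17 for 6 members, ES18 for Gp9, and ES19 for Ppbp and Treml1. With each array centred on its median the count was 8, since Ppbp was then highest in ES12. Leaving out ES13 and ES14 could not change the count of 9, since no member had its highest array there.

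The members left the range of ES21 to ES26 at different titles. Taking the first array in title order that was more than 1 log2 unit above the highest of ES21 to ES26, Itga2b did so in ES14, Pf4 and Itgb3 in ES15, Ppbp, Gp5, Gp6, Gp9 and Vwf in ES16, and Treml1 in ES17. The largest step between neighbouring titles was that into ES14 for Itga2b (1.25 log2 units) and into ES15 for Itgb3 (2.09). It was the step into ES16 for Ppbp (3.17), Pf4 (2.90), Gp5 (1.93) and Gp9 (0.98), and the step into ES17 for Gp6 (2.13), Vwf (1.43) and Treml1 (1.35). In ES15, Itga2b, Itgb3 and Pf4 were thus more than 1 log2 unit above the highest of ES21 to ES26, while Ppbp, the glycoproteins, Treml1 and Vwf were not. ES20 was lower than the highest array of the run for every member, with differences from -0.28 log2 units for Treml1 to -1.27 for Vwf. With 1 array per title and no replicate of any title, these steps have no error of their own.

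**Figure D1:**
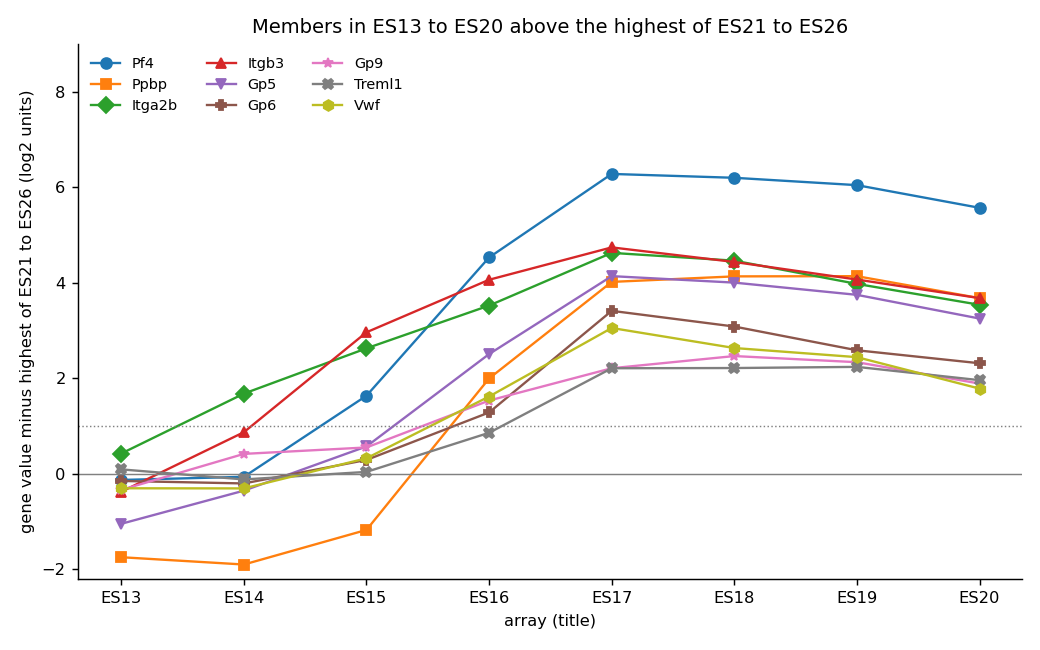
Gene value minus the highest value of ES21 to ES26 (log2 units, y axis) for the 9 genes in ES13 to ES20 (x axis, by title); each line is 1 gene, the solid line marks 0 and the dotted line 1 log2 unit. Itga2b is the first line above the dotted line, in ES14, and Treml1 the last, in ES17.

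The members also differed in how they compared between the outer runs. For Pf4, Ppbp, Itgb3 and Vwf, every array of ES1 to ES12 lay above every array of ES21 to ES26, which held for 11% of all tested genes, and for Itga2b 11 of the 12 did. The medians of ES1 to ES12 exceeded those of ES21 to ES26 by 3.79 log2 units for Pf4, 2.96 for Ppbp, 1.91 for Itgb3, 1.52 for Itga2b and 1.45 for Vwf. For Gp5, Gp9, Treml1 and Gp6 the same difference was 0.67, 0.40, 0.34 and 0.08, and the runs overlapped. Among ES1 to ES12, ES9 was the highest array for 4 members (Pf4, Itga2b, Itgb3 and Vwf). ES7 was the lowest for 3 members (Gp6, Treml1 and Vwf), ES5 for Itga2b and Itgb3, and ES4 for Pf4 and Ppbp. The mast cell and basophil score, for which Cpa3 and Mcpt8 are typical markers, lay between 7.88 and 9.55 in ES1 to ES12, lowest in ES5, and between 5.11 and 5.59 in ES21 to ES26. With the granulocyte and monocyte score given above, it marks the arrays in which Pf4, Ppbp, Itgb3 and Vwf were high without Gp6 or Treml1, and the part of these cells in those values was not tested.

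Profiles of the members were set against each other by the root mean square difference over the 26 arrays, after each gene's own mean was subtracted. Gp9 and Treml1 were the closest of the 36 pairs (0.35 log2 units), followed by Gp6 and Gp9 (0.46), Gp6 and Treml1 (0.46) and the integrin pair Itga2b and Itgb3 (0.47). Narrow ranges make this difference small, which applies to the first 3 pairs. Pf4 and Ppbp, neighbouring genes on chromosome 5, differed by 0.92. The widest difference was between Ppbp and Gp5 (1.75).

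Single probe sets mostly followed the gene values. The highest array lay in ES13 to ES20 for 134 of the 166 probe sets, against 25.4% of all probe sets on the array, and 79 were at least 1 log2 unit above the other 18 arrays, against 3.29%. Of the 85 brighter probe sets that make up the gene values, 75 had their highest array in that run, and of the 81 dimmer ones 59 did. For Itga2b, 37 of 39 probe sets exceeded the other 18 arrays by at least 1 log2 unit, with a median of 2.46, and for Itgb3 15 of 17 did, with a median of 2.01. Gp6 had 8 of 10 with a median of 3.38, Pf4 5 of 6 with a median of 2.21, Treml1 8 of 12 with a median of 1.71, and Gp5 both of its 2. Gp9 was less even, with 2 of 4 past 1 log2 unit and gaps from -0.07 to 3.08, so its gene value rests on probe sets that disagree. Of the 71 Vwf probe sets 47 had their highest array in ES13 to ES20 and 2 passed 1 log2 unit. None of the 5 Ppbp probe sets did, with gaps from -0.10 to 0.10.

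**Figure D2:**
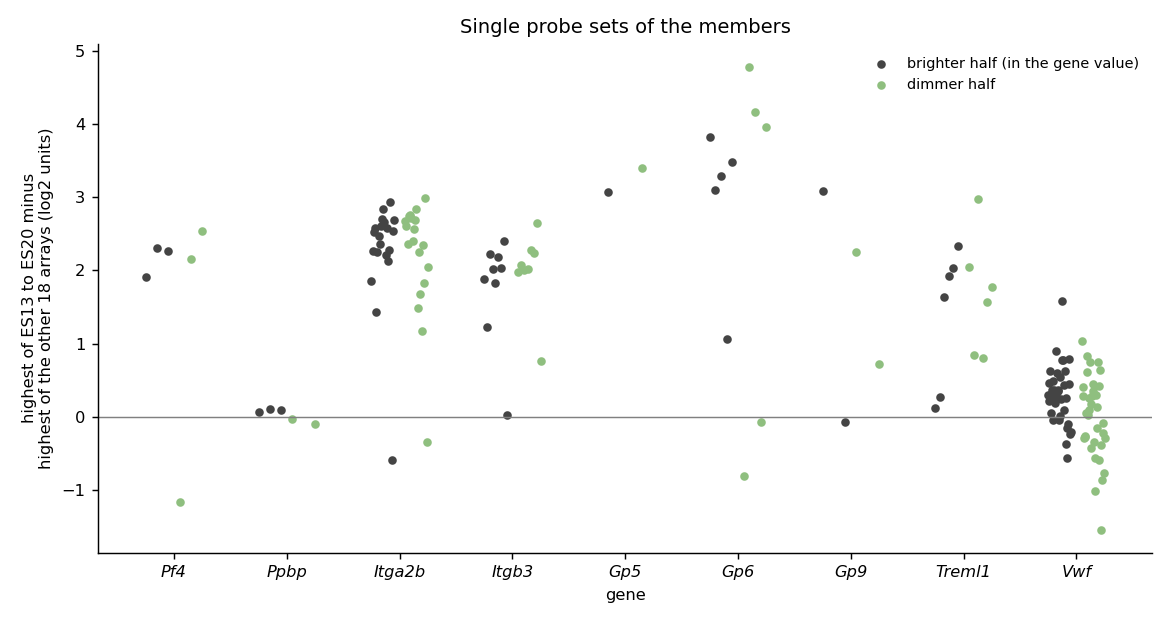
Highest value of ES13 to ES20 minus the highest of the other 18 arrays (log2 units, y axis) for each of the 166 probe sets, by gene (x axis); dark points are the brighter probe sets that enter the gene value and green points the dimmer ones. The Itga2b points gather around their median of 2.46, the Ppbp points lie between -0.10 and 0.10, and the Vwf points spread around 0.25.

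Between the strain labels, 1 of the 8 members tested with all genes passed the threshold. Gp6 averaged 5.33 ± 0.20 (SD, n = 14) in arrays labelled 129S2/SvPas and 6.41 ± 1.50 (SD, n = 12) in those labelled C57BL/6, which is -1.08 ± 0.38 on the log2 scale (SE; limma adjusted p = 0.0236). That is 1 of 8 lower in 129S2/SvPas against 22.1% of all tested genes, and 0 of 8 higher against 21.2%. At an unadjusted p below 0.05 the counts among these 8 were also 1 lower and 0 higher. Gp5, tested with the genes that had 2 or more probe sets, was lower with an unadjusted limma p of 0.0295. The labels overlapped for Gp6: the high C57BL/6 values were those of ES16 to ES20, and ES21 to ES26 overlapped with the arrays labelled 129S2/SvPas. The call did not hold by the rank sum test (adjusted p = 0.223) or without ES1 to ES12 (adjusted p = 0.772), and it held without ES13 and ES14 (-1.07, adjusted p = 0.03).

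The other members did not pass. Pf4 averaged 8.20 ± 1.34 (SD, n = 14) in 129S2/SvPas and 7.84 ± 3.10 (SD, n = 12) in C57BL/6, with a difference of 0.37 ± 0.86 (SE; limma adjusted p = 0.767). Ppbp averaged 8.41 ± 1.82 in 129S2/SvPas and 7.70 ± 2.36 in C57BL/6, and the difference was 0.72 ± 0.77 (adjusted p = 0.485). Itga2b differed by -0.65 ± 0.58 (adjusted p = 0.392) and Itgb3 by -0.47 ± 0.63 (adjusted p = 0.59). The C57BL/6 label holds both the high arrays ES16 to ES20 and the low arrays ES21 to ES26, and the SD of each member given here was wider under it. Gp9 differed by -0.54 (adjusted p = 0.174), Treml1 by -0.47 (adjusted p = 0.224) and Vwf by 0.19 (adjusted p = 0.746). Gp5, tested among 20703 genes, averaged 5.83 ± 0.66 in 129S2/SvPas and 7.21 ± 2.27 in C57BL/6 and differed by -1.37 ± 0.60 (SE; limma adjusted p = 0.0692), and it passed when any one of ES21, ES23, ES25 or ES26 was left out (adjusted p from 0.0204 to 0.0434). Without ES13 and ES14, 0 members were higher, against 25.3% of all tested genes, and 1 was lower, against 25.2%.

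Tested one by one, 11 of the 166 probe sets passed between the labels. There were 4 higher in 129S2/SvPas (2 of Vwf, 1 of Pf4 and 1 of Itga2b), against 14.2% of all probe sets, and 7 lower (5 of Gp6, 1 of Itga2b and 1 of Gp9), against 14.6%. Without ES13 and ES14 the counts were 6 higher and 7 lower.

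**Figure D3:**
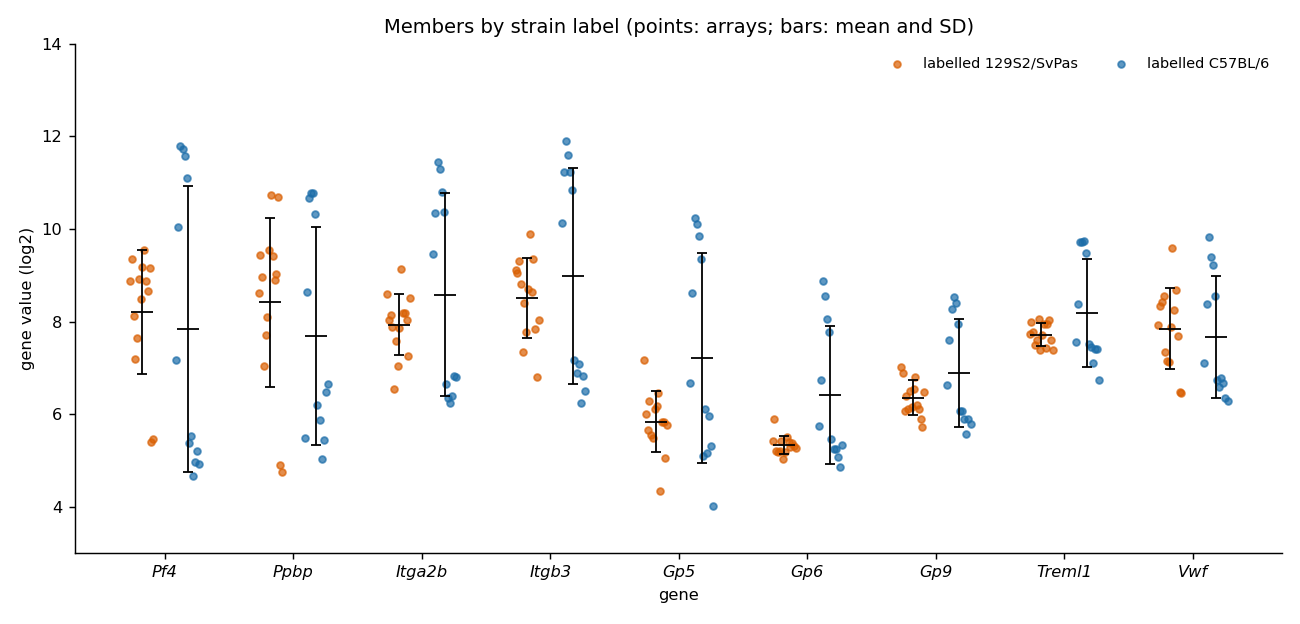
Gene value (log2, y axis) of the 9 genes (x axis) by strain label, 129S2/SvPas at the left and C57BL/6 at the right of each pair; points are arrays and bars the mean with SD (n = 14 and n = 12). The SD is wider in C57BL/6 for each gene, and that of Pf4 is 1.34 in 129S2/SvPas and 3.10 in C57BL/6.

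The erythroid and endothelial scores rose and then fell within ES13 to ES20, as the mean of the members did, and the other marker scores did not follow this course. The part of these cell types in the members' values was not tested. The mean of the 9 members was 6.06, 6.46, 7.32, 8.89, 10.31, 10.19, 9.96 and 9.53 in ES13 to ES20. The erythroid score (11 of 14 listed genes measured) was 6.78, 8.74, 10.82, 11.23, 10.74, 10.41, 9.77 and 9.38 in the same arrays, against 6.05 to 6.62 in ES1 to ES12 and 5.70 to 6.20 in ES21 to ES26. It was highest in ES16, the array before the one with the highest mean of the members, and 9 of its 11 genes had their highest array there. The list was not uniform, since 1 gene, the adult beta globin gene Hbb-b1, had its highest array in ES1 to ES12. Hbb-b1 was 7.96 to 12.55 in ES1 to ES12, 4.51 to 10.86 in ES13 to ES20 and 3.93 to 4.92 in ES21 to ES26. Hbb-bh1, an embryonic beta-like globin, had 10.67 in ES14 and 12.57 in ES15. The members were not uniform in these 2 arrays: Pf4 had 5.46 and 7.16, Gp6 5.26 and 5.75, Itga2b 8.51 and 9.45, and Itgb3 8.04 and 10.13. The endothelial score (15 of 15 genes measured) was 6.85, 7.45, 7.91, 8.14, 8.50, 8.32, 7.87 and 7.70, against 6.19 to 6.73 in ES1 to ES12 and 5.36 to 6.29 in ES21 to ES26, and 7 of its genes had their highest array in ES17, as Vwf did. Others departed from this course, with 1 gene (Sox7) highest in ES14 and 2 (Tek and Egfl7) in ES15. Kdr was already 10.44 in ES13 and had its highest value, 11.30, in ES20. In ES1 to ES12, where Vwf reached 9.59 in ES9, the endothelial genes were not uniform. Cdh5, the endothelial cadherin, was 9.50 in ES17 and 5.14 to 6.06 in ES1 to ES12, whereas 3 of the 15 (Pecam1, Erg and Icam2, adhesion and ETS factor genes that blood cells also use) had their highest array in ES1 to ES12. Pecam1 was 10.45 in ES17 and 8.76 to 11.82 in ES1 to ES12. The fibroblast score (16 of 16) was 8.15, 8.65, 8.94, 9.74, 10.11, 10.47, 10.65 and 10.64 and did not decline after ES17 as the members did. Its genes differed: 9 of the 16 had their highest array in ES13 to ES20, 6 in ES21 to ES26 and 1 (Thy1) in ES1 to ES12. Some fell after ES17, such as Prrx1, which was 9.01 in ES17 and 7.99 in ES20. The granulocyte and monocyte score was 5.71, 5.49, 5.84, 6.47, 6.94, 7.02, 7.11 and 7.34 in ES13 to ES20, with its highest value in ES20, and 5.49 to 5.84 in ES21 to ES26. In 8 of its 17 genes the highest of ES13 to ES20 was more than 1 log2 unit above ES21 to ES26, and all 17 were higher still in ES1 to ES12. The macrophage lysozyme gene Lyz2 was 4.35 in ES13 and 9.94 in ES20, the receptor gene Csf1r was 6.00 in ES13 and 9.02 in ES20, and the neutrophil granule gene Ngp was at most 5.34 in the run. The mast cell score (9 of 11 measured) was 5.49 to 5.92 in ES13 to ES20, and the mast cell carboxypeptidase gene Cpa3 was at most 4.83 there. Of its 9 genes, 8 had their highest array in ES1 to ES12, and the exception was Kit, highest in ES19. Kit was 9.03 to 10.22 in ES13 to ES20, 7.56 to 9.81 in ES1 to ES12 and 5.29 to 8.88 in ES21 to ES26. The pluripotency score (14 of 14) was 7.65 to 8.42 in ES13 to ES20.

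**Figure D4:**
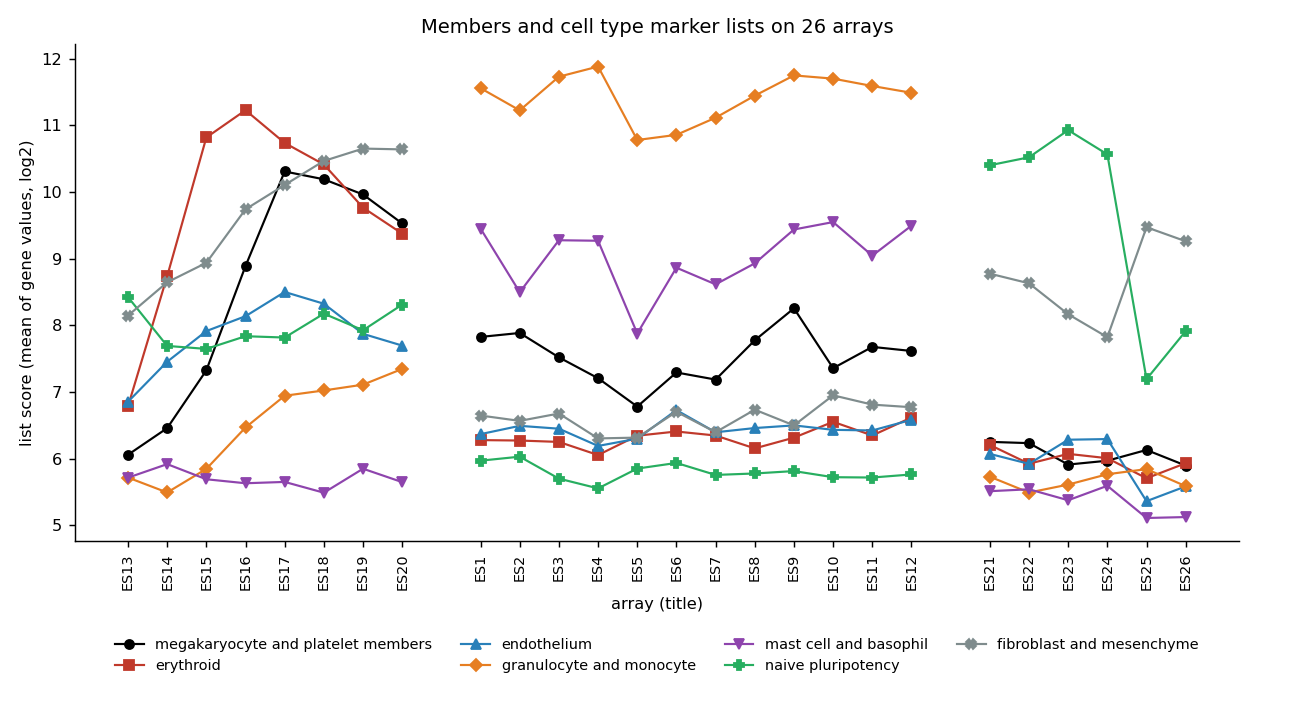
List score (mean of the gene values of a list, log2, y axis) of the 9 members and of 6 marker lists on each of the 26 arrays (x axis, ES13 to ES20 at the left, then ES1 to ES12, then ES21 to ES26). In ES13 to ES20 the erythroid score is highest in ES16 (11.23) and the mean of the members in ES17 (10.31), while the granulocyte and monocyte score is at or above 10.78 in ES1 to ES12 and at most 7.34 elsewhere.

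Genes with the most similar profiles were taken for the 6 members that spanned at least 4 log2 units, 3 for each, by the same root mean square difference over 26 arrays among the 18329 genes. For Itga2b they were the sialyltransferase gene St6galnac3 (0.66), the protein kinase C theta gene Prkcq (0.69) and the granule protein gene Mmrn1 (0.69), and for Itgb3 Prkcq (0.74), the ADP receptor P2ry1 (0.77) and the adhesion receptor Cd226 (0.79). For Gp5 they were Mmrn1 (0.63), the steroid dehydrogenase gene Hsd3b6 (0.64) and the platelet lipoxygenase gene Alox12 (0.66), and for Gp6 the long noncoding RNA Hdnr (0.37), the protease gene Adamts18 (0.38) and the endothelin receptor Ednrb (0.39). Pf4 had Cd226 (1.11), the thrombin receptor F2rl2 (1.18) and Uba7, the activating enzyme of ISG15 (1.25). Ppbp had the complement receptor C3ar1 (1.12), the stress-induced factor Atf3 (1.12) and the death receptor Fas (1.13). Of the 15 distinct genes, 6 (Prkcq, Mmrn1, P2ry1, Cd226, Alox12 and F2rl2) were in the 5 lists of other megakaryocyte and platelet genes described next, which held 134 of the 18329 genes. Prkcq was 5.04 to 8.46 in ES13 to ES20, highest in ES17, 5.15 to 7.03 in ES1 to ES12 and 4.68 to 5.03 in ES21 to ES26.

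Counts for the other genes of the pathway are read against the shares of all tested genes. Between the labels, 21.2% were higher and 22.1% lower in 129S2/SvPas (25.3% and 25.2% without ES13 and ES14). By run, 23.3% had their highest array in ES13 to ES20, and 3.58% were at least 1 log2 unit above the other 18 arrays there. When ES1 to ES12 were dropped instead, 1 of the 18329 genes passed, with only ES13 and ES14 still labelled 129S2/SvPas. Whether the list differences below follow the strain or ES1 to ES12 was not tested. Of 26 other surface receptors tested, 7 were higher and 8 lower in 129S2/SvPas (median difference -0.07, against -0.0013 over all tested genes), and 9 and 8 without ES13 and ES14. The 3 largest differences past the threshold were those of the Fc receptor gamma chain Fcer1g (4.53 ± 0.89, SE; limma adjusted p = 0.000162), which is also a myeloid gene, Cd84 (3.67) and the prostacyclin receptor Ptgir (3.30). Fcer1g was 11.13 to 12.62 in ES1 to ES12, but 4.36 in ES13 and 4.47 in ES14 under the same label. Not every list gene did so: the chemokine receptor Cxcr4 was 9.67 in ES13 and 9.79 in ES14, above every array labelled C57BL/6. Within ES13 to ES20, 12 of the 26 had their highest array and 5 were at least 1 log2 unit above the other 18 arrays. Clec1b, the podoplanin receptor CLEC-2, was 3.35, 5.24, 7.19, 8.92, 9.77, 9.39, 8.65 and 7.95 in ES13 to ES20, and at most 6.06 in ES1 to ES12 and 4.44 in ES21 to ES26. Gp1ba, the von Willebrand factor-binding partner of Gp5 and Gp9, with 3 probe sets and not tested, was 5.33, 5.90, 6.31, 7.70, 9.25, 8.96, 8.52 and 7.94 in ES13 to ES20, and at most 6.29 and 4.81 in the outer runs. The adhesion gene Esam, shared with endothelium, had its highest value of 8.87 in ES17. These 3 genes were picked for the largest gap of ES13 to ES20 over the other 18 arrays, so a highest array in that run was set by the choice. All 3 were highest in ES17. Of the 27 receptors measured, Gp1ba among them, 12 were highest in ES17, 9 in ES1 to ES12 and 5 in ES21 to ES26.

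Of 27 granule cargo and granule formation genes, 12 were higher in 129S2/SvPas, against 21.2% of all tested genes, and 8 were lower, against 22.1% (13 and 8 without ES13 and ES14). They were led by the TGF-beta binding protein gene Ltbp1 (-3.94 ± 0.38, SE; limma adjusted p = 2.95e-08), the granule proteoglycan Srgn (3.57) and Lyst (2.33). Within ES13 to ES20, 7 of the 27 had their highest array, close to the 23.3% of all tested genes, and 4 were at least 1 log2 unit above the other 18 arrays, against 3.58%. Among the 7 were Mmrn1 (7.97 in ES17, at most 5.33 in ES1 to ES12), the dense granule gene Slc35d3 (8.54 in ES18, at most 6.52) and Angpt1 (8.91 in ES20, at most 7.60). Of 29 signalling genes 20 were higher, against 21.2% of all tested genes, and 3 were lower, against 22.1% (22 and 3 without ES13 and ES14), with the kinase genes Pik3cg (5.06 ± 0.80, SE; limma adjusted p = 1.15e-05) and Btk (3.86) and the adaptor gene Lcp2 (3.41) in front, all 3 of which are also expressed in myeloid cells. Lcp2 was 10.02 in ES17 and 10.81 to 11.96 in ES1 to ES12. The highest array lay in ES13 to ES20 for 7 of the 29, close to the 23.3% of all tested genes, and in ES1 to ES12 for 22. Of the 29, 2 were at least 1 log2 unit above the other 18 arrays, against 3.58% of all tested genes. Against that direction, Alox12, which makes the platelet lipid 12-HETE, was 5.18, 5.27, 5.85, 8.25, 10.13, 10.03, 9.43 and 9.01 in ES13 to ES20 and at most 5.72 in ES1 to ES12 and 5.55 in ES21 to ES26. It was lower in 129S2/SvPas by the label test (-1.76 ± 0.53, SE; limma adjusted p = 0.00801). The kinase gene Fyn was lower too (-1.06), and Prkcq was not called (-0.11, adjusted p = 0.858).

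Among 21 cytoskeletal genes, 7 were higher in 129S2/SvPas, against 21.2% of all tested genes, and 7 were lower, against 22.1% (10 and 8 without ES13 and ES14), with Tuba8 (3.70), Was (3.50) and Itsn1 (-2.18) in front. For 7 of the 21 the highest array lay in ES13 to ES20, against 23.3% of all tested genes, and for 13 in ES1 to ES12. Of the 21, 2 were at least 1 log2 unit above the other 18 arrays, against 3.58%. Tubb1, the beta-tubulin of the platelet marginal band, was 5.68, 6.15, 8.92, 10.43, 11.26, 10.85, 10.37 and 10.14 in ES13 to ES20, and at most 6.31 in ES1 to ES12 and 5.95 in ES21 to ES26. It differed by -2.09 ± 0.65 between the labels (SE; limma adjusted p = 0.011). Sptb, the spectrin of the red cell skeleton, was highest in ES16 (10.24), where the erythroid score was also highest, and Arhgap6 in ES14 (9.45). Tubb1 had the widest gap of these list genes to the outer runs, 4.95 log2 units.

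Of 31 transcription factor and thrombopoietin axis genes, 15 were higher in 129S2/SvPas, against 21.2% of all tested genes, and 4 were lower, against 22.1% (17 and 5 without ES13 and ES14). The largest differences were those of the chemokine receptor Cxcr4 (3.81), the ETS factor Fli1 (3.68) and the progenitor factor Myb (3.65). For 10 of the 31 the highest array lay in ES13 to ES20, against 23.3% of all tested genes, and for 18 in ES1 to ES12. Of the 31, 4 were at least 1 log2 unit above the other 18 arrays, against 3.58%. Fli1, a megakaryocyte regulator that other blood and endothelial cells also use, was 8.63, 9.49, 9.56, 9.45, 10.04, 9.54, 8.73 and 8.62 in ES13 to ES20, 11.05 to 11.57 in ES1 to ES12 and 4.89 to 5.65 in ES21 to ES26. It was therefore high in ES13, where no member was more than 1 log2 unit above the highest of ES21 to ES26. Gata1 was 6.59, 8.75, 10.08, 10.33, 9.60, 9.12, 8.33 and 8.15 in ES13 to ES20, 6.43 to 8.17 in ES1 to ES12 and 5.14 to 6.23 in ES21 to ES26. Its partner FOG1, encoded by Zfpm1, was highest in ES16 (10.90), and Meis1 was highest in ES19 (10.34). Neither Gata1 (-0.22, adjusted p = 0.774) nor Zfpm1 (-0.80, adjusted p = 0.209) passed between the labels, and Meis1 was lower in 129S2/SvPas (-2.94, adjusted p = 6.7e-07).

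Start regions of 300 bases were found in RefSeq for 7 of the 9 members (all but Itgb3 and Vwf), and 2 motifs were searched in them on both strands. The GATA motif was AGATAA or AGATAG or TGATAA or TGATAG, and the ETS motif was AGGAAA or AGGAAG or CGGAAA or CGGAAG. Matches to the GATA motif were present in 3 of the 7 (Pf4, Gp5 and Gp6), against 29.8% of 32851 start regions of the same length, and matches to the ETS motif in 6 of the 7 (all but Ppbp), against 64.7%. Both were present in 3 of the 7, against 19.1%. In the sequences printed above, Gp5 held 3 GATA matches upstream of the start, the nearest at position -77, Gp6 held 1 at position -144, and the Pf4 match was at position 37 (first base of the match, with the annotated start as position 1 and no position 0). Itga2b held 3 ETS matches and no GATA match in this window. These matches are letters in a window and were not tested as binding sites.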

How the data were processed

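RNA from the 26 samples was DNase-treated, and 2 rounds of amplification preceded labelling as cDNA, per the labels' protocols. The deposited values are log2 RMA values per probe set, made by the authors with Affymetrix Expression Console in an extended-exon analysis, per the labels and the submitters' processing notes; its version and the genome build are not given in the sources used here, and the log base was taken from RMA convention and the range of 0.831 to 15.6. RMA sets the arrays to a common distribution, and array medians ran from 5.32 to 5.51. Precision is limited by the number of arrays. No 2 arrays held identical values.

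By the platform annotation, 306069 probe sets (48.4%) carried a single symbol, 6067 carried several and 319612 carried none. RefSeq (GRCm38.p6) held 17747 of the 21757 symbols as current names, 3805 were replaced by the name they are a synonym of, and 205 stayed as annotated. Differences are 129S2/SvPas minus C57BL/6, from limma 3.58.1 in R 4.3.3 (lmFit, eBayes with a trend, two-sided, Benjamini-Hochberg over all genes or probe sets tested, threshold 0.05); the step was tested on simulated data. The members, lists, runs of titles and tests were chosen with earlier results of these data known. Named genes are the members, per list up to 3 with the largest difference past the threshold and the 3 with the largest gap of ES13 to ES20 over the other 18 arrays, and the 3 nearest profiles of each member that spans at least 4 log2 units, provisional names left out. List genes with no singly named probe set were not analysed here. Alternatives covered the gene summary, minimum of probe sets, dim genes, normalization, eBayes, array weights, the test, the threshold and left-out arrays.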

Additional observations from a re-analysis of the deposited data

How the results depend on the processing

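Of 462 recomputed values, 437 kept their direction and side of the threshold, or for counts stayed within 1.5 times, and 25 did not. The cause was not tested. Many of these values left out 1 array at a time. For the count of members lower in 129S2/SvPas, 26 of the 38 alternatives did so and kept the count, and 5 of the others moved it. The number of members lower in 129S2/SvPas was 0 without the dimmer 50% of genes (which leaves Gp6 and Gp9 untested), by the rank sum test, at an adjusted p of 0.01 and without ES1 to ES12, and 3 with array weights, which called Gp9 (-0.84) and Treml1 (-0.68) beside Gp6; Gp5 also passed with array weights (-1.90). The Gp6 difference was -0.31 by medians in the rank sum test, -1.08 (unchanged, adjusted p = 0.0236) at the stricter threshold and -1.13 without ES1 to ES12. Directions turned for uncalled members: Pf4 with array weights (-0.0091), Itgb3 (0.027) and Treml1 (0.18) by difference of medians, and, without ES1 to ES12, Pf4 (-2.41), Ppbp (-2.87) and Vwf (-1.19). Of all genes, 4840 passed without the dimmer 50% and 1 without ES1 to ES12. Of the member probe sets, 1 passed at 0.01 and 0 without ES1 to ES12. Leaving out each array in turn gave Gp5 differences from -1.66 to -1.10, and Gp6 kept its call (adjusted p from 0.0106 to 0.0486). With arrays centred on their medians, the middle gene difference was 0.13 instead of -0.0013. The count of members highest in ES13 to ES20 was 9 in 4 of 5 alternatives and 8 with arrays centred, where Ppbp was highest in ES12. Of the 4, 1 (without ES13 and ES14) was chosen after seeing the data and could not change the count. No paired analysis was possible because the labels give no pairing of samples between the strains.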
